A study of Homo sapiens with 18 samples.

Results

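The genes described here are the clustered histone genes, the members of histone clusters HIST1 to HIST4. Most of these encode linker histone H1 or the core histones H2A, H2B, H3 and H4. All were chosen by name alone, as gene symbols that begin with HIST1H to HIST4H in the deposited table. Symbols that end as pseudogene names were left out (15 symbols). This gave 75 of the 57500 genes, namely 6 H1, 17 H2A, 23 H2B, 14 H3 and 15 H4 genes. Cluster 1 on chromosome 6 held 55 of them, cluster 2 on chromosome 1 held 15, cluster 3 on chromosome 1 held 4 and cluster 4 on chromosome 12 held 1. The measurements were RNA-seq counts from IMR90, an established line of human lung fibroblasts, made here to overexpress Parkin, the ubiquitin ligase that marks damaged mitochondria for removal. The 6 groups of 3 libraries each were proliferating cells (Prol), cells made senescent with X-rays (Sen (IR)), and 4 irradiated groups treated with the uncoupler CCCP, which in Parkin-expressing cells clears the mitochondria. Of these last groups, the first had CCCP alone (Sen (IR) + CCCP), another also had sodium acetate (+ acetate), another was transfected with mitochondrial DNA (+ mtDNA), and the last had both (+ mtDNA + acetate). By the study's methods CCCP was given shortly after irradiation, acetate from the time the mitochondria were gone, and mtDNA late before collection. The labels name no group with the transfection reagent alone, no CCCP group without irradiation and no acetate group with mitochondria. The DNA and its transfection therefore cannot be told apart here. All cells carried Parkin, so CCCP itself and the loss of mitochondria cannot be told apart either. The labels give a single line, so the libraries of a group are not separate donors. The study describes its cell culture replicates as independent experiments, and p-values measure the spread between these samples of this line.

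Clustered histone genes are short, mostly without introns, and are expressed above all in S phase, when new chromatin is assembled on copied DNA. Their messages normally end not in a poly(A) tail but in a stem-loop that is bound by the protein SLBP and cut by a complex with the U7 small nuclear RNA. A part of these genes can also give longer, polyadenylated messages by reading past the stem-loop to a poly(A) signal, and such forms are known from differentiated and non-dividing cells. The libraries were made from poly(A) RNA, so the values describe histone messages that were caught with this selection and not the whole pool of histone mRNA. Uniquely mapped reads were counted, and near-identical copies (HIST2H2AA3 and HIST2H2AA4, HIST2H3A and HIST2H3C, HIST2H4A and HIST2H4B) lose reads under that rule, so their values are uncertain. Among the 36 genes tested, HIST1H2BC, HIST1H2BE, HIST1H4H and HIST2H2BF share exon bases with a gene on the opposite strand and HIST1H2AC, HIST2H2BA, HIST2H2BD and HIST3H2BB with one on the same strand, and the study's methods state strand-aware counting only for libraries that were strand-specific, without saying whether these were, so their counts are uncertain too.

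Total counts per library were 24624886 to 46224280. Mitochondria-encoded genes took 2.33 to 2.92% of counts in Prol, 1.76 to 2.66% in Sen (IR) and 0.114 to 0.139% in the Sen (IR) + CCCP and + acetate groups. With mtDNA they took 0.0463 to 0.0537%. In the + mtDNA + acetate group they took 0.0642 and 0.0626% in replicates 1 and 3 but 0.238% in replicate 2, which also had the lowest summed histone level of its group. That library stands apart, whether it is as labelled was not tested, and counts of calls in the comparisons that use it are given with and without it. The 10 fibroblast marker genes, COL1A1 and VIM among them, summed to 39416 CPM (counts scaled to a common library size) in Prol, 23982 in Sen (IR) and between 5477 and 6956 in the CCCP groups. The endothelial and leukocyte marker lists summed to at most 0.964 and 2.13 CPM in any library, and the epithelial list was highest in Prol (129.9 ± 4.47 CPM, mean ± SD, n = 3). The part of any cell mixture in the results was not tested.

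The letters of the 3' end are shown because they set how these messages are normally made. In 67 of the 69 members that could be matched by identifier to GENCODE v44, a transcript held a 16-letter stem-loop, of which the most common form stood in 36 members of the H1, H2A, H2B and H3 classes. A form with another last loop letter stood in 10 members of the same classes, and the H4 genes had forms of their own, in 10 and 4 members. The 4 examples below come from the genome (GRCh38), read on the strand of the gene, with the 4-letter loop in capitals between the paired arms.
HIST1H2AC, chr6:26124669-26124684, plus strand: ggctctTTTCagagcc
HIST1H2BK, chr6:27146366-27146381, minus strand: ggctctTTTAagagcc
HIST1H4H, chr6:26285131-26285146, minus strand: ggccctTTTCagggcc
HIST1H4I, chr6:27139654-27139669, plus strand: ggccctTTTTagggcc

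The members were split by their transcript ends as annotated in GENCODE v44. A longer form here is a transcript that runs over 100 bases past the stem-loop or lacks it. One with the poly(A) signal AATAAA in its last 50 bases was annotated for 14 members. Of these, 12 (85.7%) had enough reads to be tested, HIST1H2AC, HIST1H4H and HIST2H2BE among them. That of HIST2H2BF (459 bases) is shorter than its stem-loop form (492 bases). Those of HIST1H2AA, HIST1H2AC, HIST1H4H, HIST2H4A and HIST2H4B are annotated for nonsense-mediated decay. For 48 members only short forms that end at the stem-loop were annotated, and 17 of these (35.4%) were tested, HIST1H2BK, HIST1H1C and HIST1H4I among them. A further 4 had longer forms without that signal, 3 were annotated as pseudogenes (HIST2H2BA, HIST2H2BD and HIST3H2BA) and 6 were not matched. Among the unmatched, HIST2H2BB and HIST2H2BC carry pseudogene names in RefSeq (H2BP2 and H2BC20P). The deposited counts and TPM rest on the authors' own gene models, which can be longer than these forms. In Sen (IR) replicate 1, HIST1H4I had 1543 counts and 110.8 TPM and HIST1H4E 126 counts and 7.87 TPM. HIST1H4K, of similar length in GENCODE v44, had 7 counts and 2.08 TPM. The first 2 genes thus had more counts per TPM, as a longer gene model gives. Which forms were counted was not tested.

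The start sites are shown because many H2A and H2B genes face each other across a short stretch of DNA. RefSeq promoters (300 bases, GRCh38.p14) were found for 65 members, 32 of them with at least 10 counts in 3 or more libraries. CCAAT, the letters of the CCAAT box, stood on either strand in 26 of those 32 promoters and in 34.6% of all 35116 RefSeq promoters of that length. TATAAA stood in 19 of 32 against 11.5% of all. The octamer ATTTGCAT, known from H2B genes, stood in 13 of 32 against 1.77% of all, and those 13 belonged to the H2A and H2B classes. The motifs were searched as exact letters on both strands and can overlap, and a match is not proof of a site. The 3 windows between facing starts and the 250 bases before the HIST1H4H start are printed with these motifs in capitals, on the plus strand for the windows and on the gene's minus strand for HIST1H4H.
HIST1H2BC to HIST1H2AC, chr6:26123927-26124144: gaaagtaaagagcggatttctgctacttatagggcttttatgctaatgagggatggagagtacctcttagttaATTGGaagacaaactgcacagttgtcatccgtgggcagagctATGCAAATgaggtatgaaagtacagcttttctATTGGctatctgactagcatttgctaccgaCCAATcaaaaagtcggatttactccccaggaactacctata
HIST1H2BJ to HIST1H2AG, chr6:27132796-27133042: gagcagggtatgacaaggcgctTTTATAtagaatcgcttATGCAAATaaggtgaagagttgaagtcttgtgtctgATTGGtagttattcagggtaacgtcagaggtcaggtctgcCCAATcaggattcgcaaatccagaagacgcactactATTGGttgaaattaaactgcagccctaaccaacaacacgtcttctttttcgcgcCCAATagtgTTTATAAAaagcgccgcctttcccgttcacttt
HIST3H2A to HIST3H2BB, chr1:228457874-228458102: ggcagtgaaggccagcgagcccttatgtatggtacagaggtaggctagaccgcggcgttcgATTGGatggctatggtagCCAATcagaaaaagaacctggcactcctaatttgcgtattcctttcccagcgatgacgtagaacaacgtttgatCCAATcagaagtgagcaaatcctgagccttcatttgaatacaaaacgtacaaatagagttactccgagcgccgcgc
HIST1H4H, chr6:26285535-26285784: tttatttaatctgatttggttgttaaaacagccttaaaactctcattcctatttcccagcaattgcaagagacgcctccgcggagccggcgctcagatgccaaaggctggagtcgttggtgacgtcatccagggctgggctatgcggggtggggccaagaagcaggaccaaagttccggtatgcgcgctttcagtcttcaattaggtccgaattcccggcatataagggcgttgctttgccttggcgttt
The first window held 3 CCAAT boxes and 1 octamer, the second 4 and 1 with 3 TATAAA matches, and the third 3 CCAAT boxes and no octamer. The HIST1H4H stretch held none of the 3 motifs.

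Of the 75 genes, 36 had at least 10 counts in 3 or more libraries and the same number entered the test, with 4 of 6 H1 genes, 5 of 17 H2A, 17 of 23 H2B, 3 of 14 H3 and 7 of 15 H4 genes. The other 39 together held 697 of the 284552 counts on the 75 genes, and none exceeded 17 counts in a library. HIST1H1A, HIST1H2AA, HIST1H2AK, HIST1H2BA, HIST1H3D, HIST2H2AA4, HIST2H3A and HIST2H3C had no count in any library. A gene that passed the filter on low counts only through the groups where it is high had to differ between groups, so the counts of changed genes below describe those tested and not the whole family.

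Summed over the 75 genes, the histone level was 152, 157 and 153 CPM in the Prol libraries and 544, 575 and 579 CPM in Sen (IR). It was 765, 760.4 and 738 CPM in Sen (IR) + CCCP and 362, 385 and 363 CPM with acetate. With mtDNA it was 737, 753 and 735 CPM, and with both 326, 287 and 329 CPM. The level caught by the poly(A) selection was therefore lowest in dividing cells and highest in the CCCP groups without acetate. There was no overlap between Prol, Sen (IR), the acetate groups and the others. As a share of all counts these genes took 0.0135 ± 0.000196% in Prol, 0.0529 ± 0.00301% in Sen (IR), 0.0844 ± 0.00188% in Sen (IR) + CCCP and 0.0381 ± 0.00153% with acetate (mean ± SD, n = 3). Genes named as small RNAs without a tail (2272 genes, such as small nuclear and small nucleolar RNAs, 738 with a count) are given as a rough guide to RNA that escapes the selection. Most were taken by the start of their symbol, so copies named as pseudogenes were not left out. Their share was 0.00350 ± 0.000322% in Prol, 0.00421 ± 0.000608% in Sen (IR), 0.00398 ± 0.000332% in Sen (IR) + CCCP and 0.00314 ± 0.000356% with acetate (mean ± SD, n = 3). It was 0.00249 ± 0.000202% with mtDNA and 0.00215 ± 0.000171% with both. RN7SK, RPPH1 and RN7SL1, abundant RNAs without a tail, were at 0 in every library, so they cannot show how escape varied between groups. On the log2 scale the tailless share differed by 0.27 between Sen (IR) and Prol and by -0.34 with acetate, where the summed histone level differed by 1.88 and -1.03. These shares cannot measure how much tailless histone RNA escaped the selection, and its part in the histone values was not tested.

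**Figure D1:**
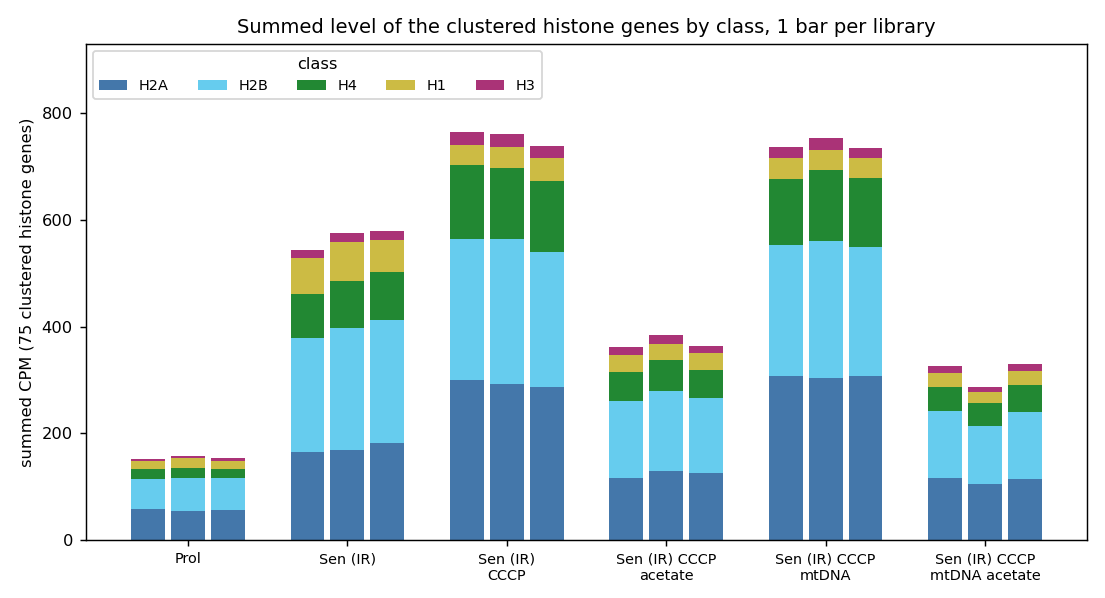
Summed CPM of the 75 clustered histone genes (y axis, from 0) in each of the 18 libraries (1 bar each, grouped by condition), split by histone class. The 3 Prol bars reach 152 to 157 CPM, the Sen (IR) bars 544 to 579 CPM, and among the CCCP groups the bars with acetate are all below those of Sen (IR) while those without it are all above.

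H2A and H2B genes together made up most of the sum in each group. H1 genes held 10.7 ± 0.825% of it in Prol and 11.7 ± 1.21% in Sen (IR), 5.40 ± 0.417% in Sen (IR) + CCCP and 8.43 ± 0.409% with acetate (mean ± SD, n = 3). H4 genes held 11.7 ± 0.430% in Prol, 15.3 ± 0.240% in Sen (IR) and 17.9 ± 0.321% in Sen (IR) + CCCP. H3 genes never held more than 4.15% as a group mean.

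Per length, the highest member was HIST1H2BK, an H2B gene at chr6:27146361-27146855 of GRCh38, with 269 ± 26.6 TPM (transcript abundance per length) in Prol, 875 ± 25.4 in Sen (IR) and 1117 ± 18.2 in Sen (IR) + CCCP (mean ± SD, n = 3). HIST1H2AC, an H2A gene at chr6:26124145-26139116, followed with 113 ± 3.24, 365 ± 25.6 and 877 ± 21.9 TPM in the same groups. HIST1H1C, which encodes the linker histone H1.2, had 96.3 ± 10.001, 407 ± 34.8 and 329 ± 19.1 TPM. In Prol the TPM of HIST1H2AC and HIST1H1C lay close together, whereas in Sen (IR) + CCCP HIST1H2AC was far above HIST1H1C. HIST1H2BD, HIST1H4H, HIST1H4I, HIST2H2BE, HIST1H2BC, HIST1H2BJ and HIST1H2AI completed the 10 highest by mean TPM, the last with 3.60 ± 1.06 TPM in Prol and 56.3 ± 2.85 in Sen (IR) + CCCP. In CPM, which is not corrected for length, HIST1H2AC was the largest single contributor, with 26.0 to 38.9% of the summed level in each library. TPM and CPM are not on a common footing between groups: over the 16994 genes tested the median difference in log2(TPM + 1) was 0.35 for Sen (IR) + CCCP against Sen (IR) and 0.42 against Prol, where the fitted log2 fold changes have medians of 0.03 in both. Fold changes below come from the counts with TMM scaling.

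The first comparison asked how irradiation-induced senescence changed the histone messages. Clustered histone transcripts rose broadly: of the 36 genes tested, 31 were higher in Sen (IR) than in Prol and 0 were lower, and the 5 that did not pass had log2 fold changes from -0.11 (HIST2H4A) to 0.86 (HIST1H1D). Over all genes tested 26.7% were higher and 29.9% were lower. The median log2 fold change was 2.08 for the histone genes and -0.01 for all genes. Each class took part, with 3 of 4 H1 genes, 5 of 5 H2A, 15 of 17 H2B, 3 of 3 H3 and 5 of 7 H4 genes higher, and so did each cluster, with 24 of 26, 4 of 7, 2 of 2 and 1 of 1 genes. HIST2H2BB, HIST2H2BA and HIST1H4K were the other 3 that did not pass.

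Among the linker histones, HIST1H1C had 15.8, 17.96 and 15.4 CPM in Prol and 65.8, 71.8 and 59.1 CPM in Sen (IR). All 3 senescent libraries were above all proliferating ones, a 4.01-fold rise (log2 fold change 2.00 ± 0.09 SE, edgeR adjusted p = 4.01e-14). HIST1H1E, which encodes H1.4, and HIST1H1T, the linker histone of the testis, were among the 3 largest fitted rises together with the H2B gene HIST1H2BO, but all 3 rest on few reads. HIST1H1E had 0, 1 and 2 counts in Prol and 21, 9 and 10 in Sen (IR), a ratio of scaled counts of 12.4 (95% counting interval 3.96 to 62.8). HIST1H1T had 0, 1 and 0 counts in Prol and 8, 1 and 8 in Sen (IR), a ratio of 15.8 (interval 2.48 to 662). HIST1H2BO had 2, 0 and 0 and 8, 9 and 15 counts, a ratio of 14.9 (interval 3.81 to 128). These intervals are exact and cover counting error only. Their edgeR adjusted p-values were 6.38e-05, 0.00783 and 2.24e-04.

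Among the H2A genes, HIST1H2AC went from 52.02, 47.7 and 50.7 CPM in Prol to 146, 149 and 163 CPM in Sen (IR) (log2 fold change 1.61 ± 0.05 SE, edgeR adjusted p = 3.91e-16). HIST1H2AI went from 0.391, 0.629 and 0.416 to 2.70, 3.30 and 4.03 CPM, the largest H2A rise at 6.93-fold. HIST1H2AG had 2.503, 3.63 and 3.56 and 8.90, 9.75 and 10.1 CPM (log2 fold change 1.55 ± 0.14 SE, edgeR adjusted p = 2.77e-09). In none of the 3 genes did the groups overlap. Among the H2B genes, HIST1H2BC had 3.48, 3.04 and 3.79 CPM in Prol and 29.8, 29.3 and 30.6 CPM in Sen (IR), 8.62-fold more (log2 fold change 3.11 ± 0.10 SE, edgeR adjusted p = 1.75e-16). HIST2H2BE had 8.88, 11.1 and 10.47 and 48.4, 56.99 and 58.3 CPM (log2 fold change 2.42 ± 0.09 SE, edgeR adjusted p = 4.16e-15). HIST1H2BK, the highest member per length, rose 3.09-fold, from 26.2, 29.6 and 25.6 to 82.1, 87.1 and 81.9 CPM. Smaller rises were those of HIST1H2BD, from 9.15, 9.74 and 10.2 to 19.04, 19.8 and 20.1 CPM (2.01-fold), and of HIST1H2BJ, from 2.66, 2.04 and 2.31 to 7.37, 7.21 and 8.51 CPM (3.30-fold). The groups did not overlap in any of these 5 H2B genes.

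For H3, HIST1H3H had 1.17, 0.9996 and 2.08 CPM in Prol and 7.61, 8.14 and 8.16 CPM in Sen (IR) (log2 fold change 2.42 ± 0.18 SE, edgeR adjusted p = 1.47e-10), and HIST1H3E had 2.43, 1.96 and 3.14 and 7.28, 7.67 and 7.41 CPM. The third tested H3 gene, HIST1H3G, stayed under 0.6 CPM in every library. For H4, HIST1H4H had 3.95, 5.44 and 4.03 CPM in Prol and 40.47, 39.03 and 45.6 CPM in Sen (IR), a 9.38-fold rise (log2 fold change 3.23 ± 0.11 SE, edgeR adjusted p = 4.62e-16) and the largest among the 10 genes highest by TPM. HIST1H4I rose 3.25-fold from 12.48, 11.6 and 11.6 to 36.2, 42.8 and 36.8 CPM. Its only form in GENCODE v44 ends at the stem-loop, but it had more counts per TPM than that length gives, as described above. When only genes with at least 10 counts in every library were kept, 22 histone genes were tested and 20 of them were called.

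**Figure D2:**
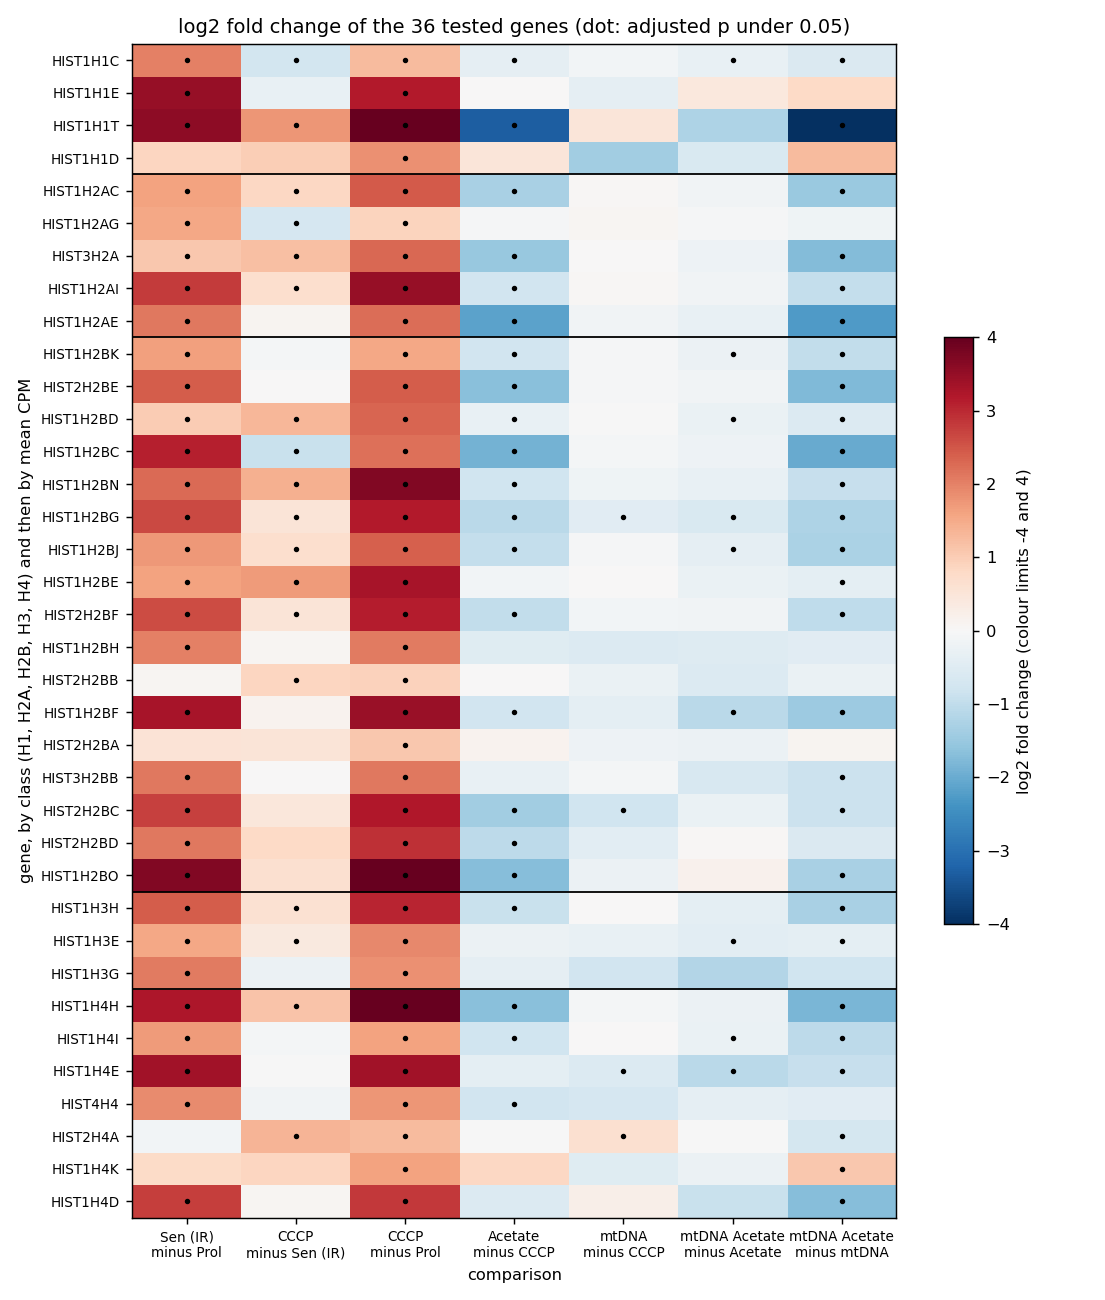
Fitted log2 fold changes of the 36 tested genes (rows, by class and then by mean CPM) in 7 comparisons (columns), where red is higher in the group named first, blue is lower, and a dot marks an adjusted p under 0.05 in edgeR's quasi-likelihood test. The first column is red with 31 dots, the third red with 36, the fourth and seventh are mostly blue with 22 and 27 dots, and the second mixes 15 higher and 3 lower genes.

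**Figure D3:**
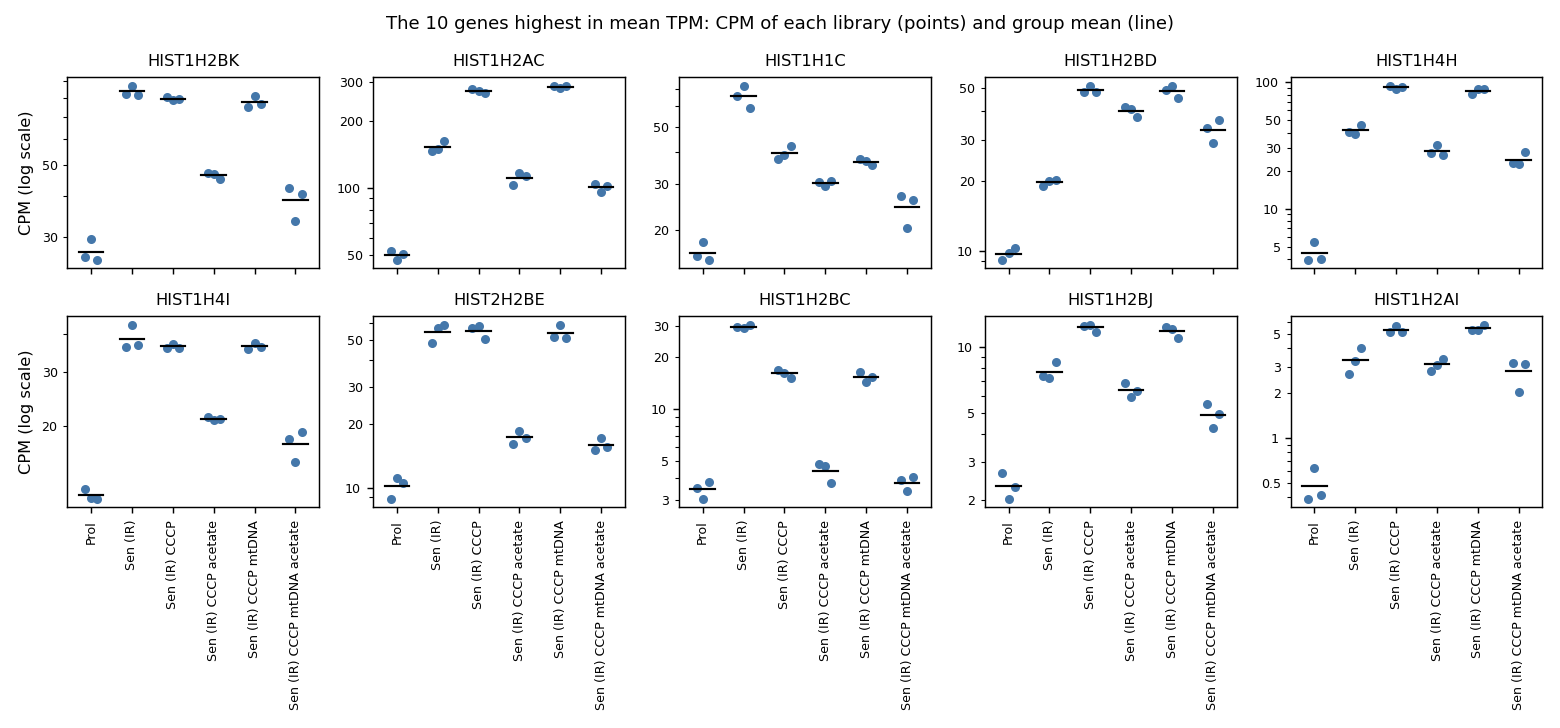
CPM (y axis, log scale, 1 panel per gene) of the 10 genes highest in mean TPM, with a point per library and a line at each group mean. Every panel has its lowest group in Prol, and HIST1H1C and HIST1H2BC fall from Sen (IR) to Sen (IR) + CCCP while HIST1H2AC, HIST1H2BD and HIST1H4H rise.

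The second comparison asked how CCCP, with its loss of mitochondria, changed the histone messages of irradiated cells, and here the genes split. Of the 36 tested, 15 were higher in Sen (IR) + CCCP than in Sen (IR), 3 were lower and 18 did not pass, against 34.0% higher and 31.3% lower among all genes. The share of histone genes that rose (15 of 36) was thus near that of all genes, and the share that fell was below it. The median log2 fold change was 0.51 for the histone genes and 0.03 for all genes. By class, 1 of 4 H1, 3 of 5 H2A, 7 of 17 H2B, 2 of 3 H3 and 2 of 7 H4 genes were higher, while 1 H1, 1 H2A and 1 H2B gene were lower.

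HIST1H2AC rose from 146, 149 and 163 CPM in Sen (IR) to 279, 273 and 267 CPM in Sen (IR) + CCCP (log2 fold change 0.84 ± 0.05 SE, edgeR adjusted p = 4.04e-12). HIST1H4H rose 2.19-fold to 93.8, 89.1 and 91.2 CPM, and HIST1H2BD rose 2.49-fold to 47.9, 50.8 and 47.8 CPM, with no overlap between the groups in either gene. The 3 largest rises were in less abundant genes. HIST1H1T went from 8, 1 and 8 counts to 24, 24 and 14 counts (log2 fold change 1.77 ± 0.51 SE, edgeR adjusted p = 0.00456). HIST1H2BE went from 1.22, 1.65 and 1.89 to 5.44, 5.33 and 4.39 CPM (log2 fold change 1.71 ± 0.18 SE, edgeR adjusted p = 1.76e-08). HIST1H2BN went from 6.03, 5.22 and 6.51 to 15.1, 16.9 and 16.1 CPM (log2 fold change 1.43 ± 0.10 SE, edgeR adjusted p = 2.13e-11). In all 3 every depleted library was above every Sen (IR) library. HIST1H1T, at chr6:26107412-26108135 of GRCh38, lies within the span annotated for HIST1H2BC (chr6:26086317-26123926) on the same strand.

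The 3 genes that fell were HIST1H2BC, HIST1H1C and HIST1H2AG. HIST1H2BC dropped to 16.8, 16.2 and 15.2 CPM, 1.86-fold lower than in Sen (IR) (log2 fold change -0.89 ± 0.08 SE, edgeR adjusted p = 2.96e-09). HIST1H1C dropped to 37.4, 38.8 and 42.1 CPM, 1.66-fold lower (log2 fold change -0.74 ± 0.08 SE, edgeR adjusted p = 5.88e-08). HIST1H2AG had 6.41, 5.93 and 5.59 CPM, 1.59-fold lower (log2 fold change -0.67 ± 0.12 SE, edgeR adjusted p = 6.07e-05). In these 3 genes the groups did not overlap in CPM, nor in TPM, where the fall was smaller (for HIST1H2AG from 16.97 ± 1.25 to 14.2 ± 1.03 TPM). HIST1H2BK, HIST1H4I and HIST2H2BE had log2 fold changes of -0.07, -0.08 and 0.02 and did not pass. In TPM every library of these 3 genes was higher after CCCP, on a scale where the median of all genes was higher too.

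Members that face each other across a shared window could differ in direction. Among 14 pairs of members that start within 1000 bases of each other on opposite strands, 4 had both members tested, each an H2A and an H2B gene with starts 219 to 248 bases apart. HIST1H2AC and HIST1H2BC, whose shared window is the first printed above, moved in opposite directions with CCCP. The log2 ratio of their CPM was 3.90, 3.97 and 3.74 in Prol, 2.29, 2.35 and 2.41 in Sen (IR) and 4.05, 4.07 and 4.14 in Sen (IR) + CCCP. It was thus lowest in Sen (IR), 1.52 under Prol and 1.74 under Sen (IR) + CCCP, with no overlap in either comparison. For HIST1H2AG over HIST1H2BJ, the second window, the log2 ratio was 0.27, 0.43 and 0.25 in Sen (IR), -0.96, -1.09 and -1.07 in Sen (IR) + CCCP and -0.28, -0.12 and -0.05 with acetate. HIST3H2A over HIST3H2BB, the third window, had 2.67 ± 0.32 in Prol, 1.64 ± 0.23 in Sen (IR), 2.84 ± 0.30 in Sen (IR) + CCCP and 1.62 ± 0.16 with acetate (mean ± SD, n = 3). In HIST1H2AE over HIST1H2BG the groups overlapped in this comparison. An exact two-sided permutation test of 3 libraries against 3 cannot go below p = 0.1, the value that each non-overlapping difference reached, and over the 24 pair comparisons made this became 0.15 after Benjamini-Hochberg adjustment, so none passed.

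**Figure D4:**
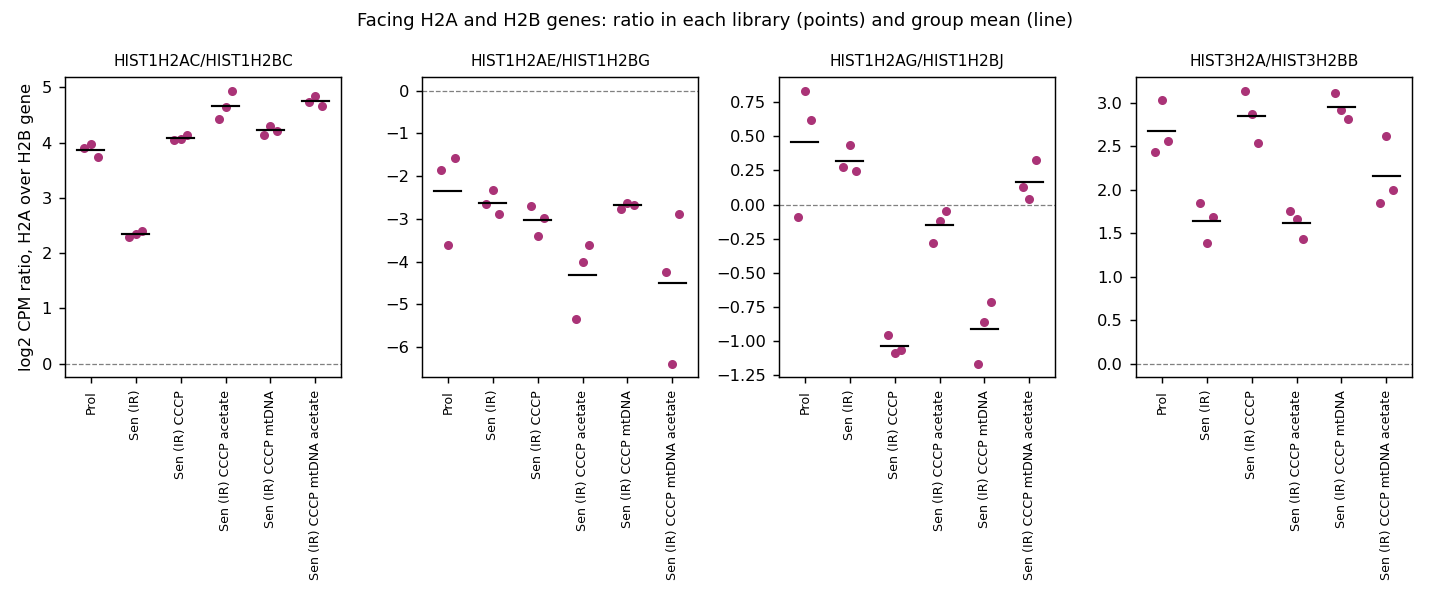
Log2 ratio of CPM, H2A gene over H2B gene (y axis), in the 4 facing pairs with both members tested, with a point per library and a line at each group mean. In the first panel the mean of Sen (IR) is near 2.35 while the means of the other groups lie between 3.87 and 4.75. In the third the CCCP groups without acetate are lowest, with means of -1.04 and -0.91. The + acetate group there also lies below 0 (mean -0.15), and Sen (IR) lies above it.

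Genes were also grouped by their 3' ends in GENCODE v44. Those with a longer form and a poly(A) signal and those with short forms only had different counts of rises with CCCP. This difference was not tested, and the gene models behind the counts can be longer than these forms. Of 12 genes with the longer form, 10 were higher, 0 were lower and the median log2 fold change was 0.76. Of 17 genes with short forms only, 3 were higher, 2 were lower and the median was 0.07. Among all genes 34.0% were higher and 31.3% were lower. Irradiation showed no such split in the counts, with 11 of 12 and 15 of 17 higher, against 26.7% of all genes, and medians of 1.91 and 2.12. These figures are counts and medians without a test, since the genes are not independent and more of the longer-form genes passed the filter on low counts. The sets also differed in depth, which limits how many genes can be called. Short-form genes went down to mean counts of 6.28 (HIST1H1D) and 8 (HIST1H4D), and up to 1928 (HIST1H2BK). The lowest longer-form gene had a mean of 22.9 counts (HIST3H2BB). The longer forms are not counted apart from short forms of the same gene, because the counts are per gene.

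**Figure D5:**
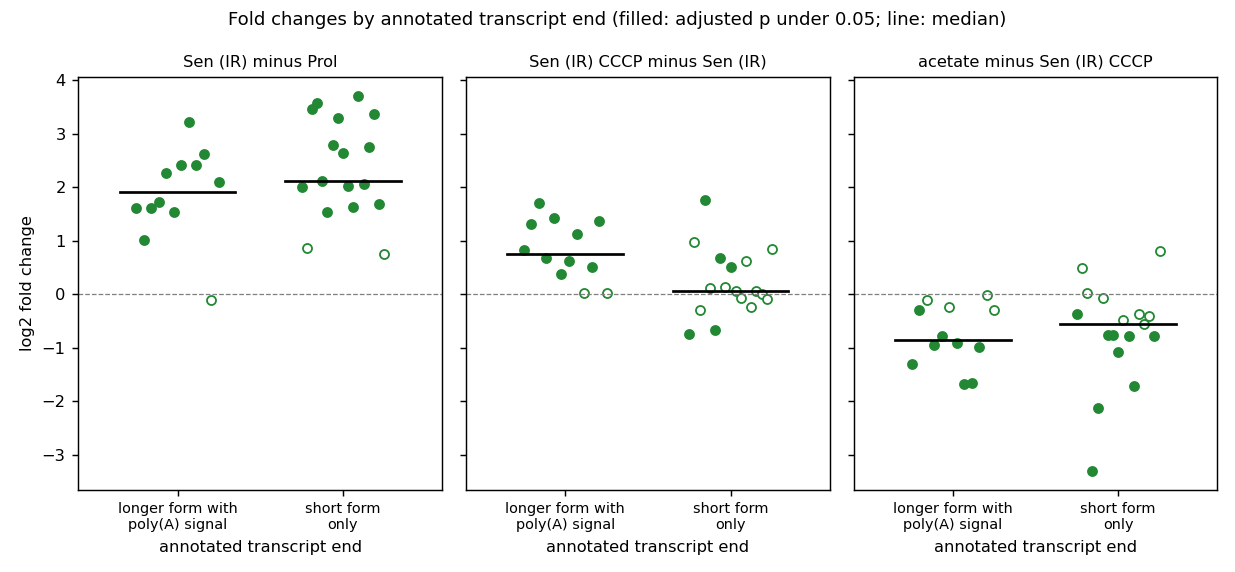
Fitted log2 fold changes (y axis) of 12 genes with a longer form that holds a poly(A) signal and of 17 genes with short forms only, in 3 comparisons. The forms are those annotated in GENCODE v44. A longer form runs past the stem-loop or lacks it. Filled points mark an adjusted p under 0.05 in edgeR's quasi-likelihood test, and a line marks the median. In the middle panel the medians are 0.76 and 0.07.

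Against proliferating cells, all 36 tested genes were higher in Sen (IR) + CCCP and 0 were lower, where 35.1% of all genes were higher and 34.1% were lower, and the median log2 fold change was 2.36 against 0.03. HIST1H4H was 20.55-fold higher (log2 fold change 4.36 ± 0.11 SE, edgeR adjusted p = 1.17e-18). HIST1H1T and HIST1H2BO had the other largest values on few reads, with 54.8 (95% counting interval 9.48 to 2199) and 23.4 (6.17 to 198) as ratios of scaled counts. The smallest rise was that of HIST1H2AG (log2 fold change 0.88 ± 0.14 SE, edgeR adjusted p = 1.02e-05). With at least 10 counts required in every library, 22 of 22 genes were called.

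The third comparison asked what acetate, a source of acetyl-CoA outside the mitochondria, did in depleted cells. Histone transcripts fell: 22 of 36 genes were lower with acetate, 0 were higher and 14 did not pass, against 28.3% lower and 28.8% higher among all genes, and 26 had an unadjusted p under 0.05. The median log2 fold change was -0.77 for the histone genes and 0.01 for all genes. The lower genes were 2 of 4 H1, 4 of 5 H2A, 12 of 17 H2B, 1 of 3 H3 and 3 of 7 H4 genes. This comparison and the one before share the Sen (IR) + CCCP libraries, so their opposite signs are not independent.

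HIST1H2AC had 279, 273 and 267 CPM without and 104, 117 and 114 CPM with acetate, 2.45-fold lower (log2 fold change -1.29 ± 0.05 SE, edgeR adjusted p = 8.42e-15), which is below its Sen (IR) libraries. HIST1H4H fell to 27.51, 32.03 and 26.4 CPM (log2 fold change -1.67 ± 0.09 SE, edgeR adjusted p = 3.54e-13), also below Sen (IR). HIST2H2BE, which did not pass with CCCP, fell from 57.03, 57.9 and 50.1 to 16.1, 18.55 and 17.2 CPM (log2 fold change -1.67 ± 0.09 SE, edgeR adjusted p = 4.13e-13). HIST1H2BC fell again, to 4.80, 4.67 and 3.71 CPM (log2 fold change -1.88 ± 0.10 SE, edgeR adjusted p = 2.85e-13), and its libraries then came close to those of Prol at 3.48, 3.04 and 3.79 CPM. HIST1H2BK dropped to 47.1, 46.9 and 45.3 CPM, HIST1H4I to 21.4, 20.9 and 21.01 CPM and HIST1H2BJ to 6.88, 5.93 and 6.30 CPM, each without overlap with Sen (IR) + CCCP. HIST1H2AI had 2.83, 3.11 and 3.40 CPM with acetate, 1.69-fold lower. HIST1H1T and HIST1H2AE fell most: HIST1H1T had 24, 24 and 14 counts without and 1, 6 and 0 counts with acetate (log2 fold change -3.30 ± 0.60 SE, edgeR adjusted p = 6.34e-05), and HIST1H2AE had 2.29, 1.59 and 1.85 and 0.173, 0.485 and 0.567 CPM (log2 fold change -2.13 ± 0.39 SE, edgeR adjusted p = 7.94e-05).

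Other members had smaller differences with acetate. HIST1H2BD was at 41.3, 40.6 and 37.55 CPM, a log2 fold change of -0.30 ± 0.07 that still passed (edgeR adjusted p = 6.87e-04), and HIST1H1C was at 30.8, 29.498 and 30.9 CPM (-0.37 ± 0.08, edgeR adjusted p = 5.83e-04). HIST1H2BE and HIST1H2AG did not pass, with log2 fold changes of -0.11 and -0.06, and HIST1H4K had the highest value, 0.82 ± 0.36 (edgeR adjusted p = 0.0546). The 36 genes thus did not fall in step, and the range ran from -3.30 to 0.82. With acetate 8 of 12 genes with a longer form and a poly(A) signal and 9 of 17 with short forms only were lower. Among all genes 28.3% were lower. The medians of these 2 sets of histone genes were -0.85 and -0.55.

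The fourth comparison asked the same of transfected mtDNA. Histone transcripts changed in few genes: 1 of 36 genes was higher and 3 were lower than in Sen (IR) + CCCP, against 10.7% higher and 7.40% lower among all genes, and the median log2 fold change was -0.11 against 0.00. The gene that rose was HIST2H4A, an H4 gene with a near-identical copy, from 1.11, 1.19 and 1.27 to 2.31, 1.72 and 1.58 CPM (log2 fold change 0.65 ± 0.21 SE, edgeR adjusted p = 0.0383). The genes that fell were HIST1H2BG, from 14.7, 16.8 and 14.52 to 11.02, 10.6 and 11.7 CPM (log2 fold change -0.47 ± 0.11 SE, edgeR adjusted p = 0.00317), HIST1H4E, from 3.46, 3.26 and 2.90 to 2.02, 2.62 and 1.94 CPM (log2 fold change -0.55 ± 0.19 SE, edgeR adjusted p = 0.0433), and HIST2H2BC, from 0.948, 1.79 and 1.23 to 0.795, 0.539 and 0.937 CPM (log2 fold change -0.81 ± 0.27 SE, edgeR adjusted p = 0.0424). HIST2H2BC carries a pseudogene name in RefSeq. HIST1H2AC, the largest contributor, had 287, 281 and 286 CPM (log2 fold change 0.06 ± 0.05 SE, edgeR adjusted p = 0.482), a difference that did not pass. Only HIST1H2BG kept its call in every alternative run. With DESeq2's Wald test or with the replicate number as a block 1 gene was called, and leaving out any 1 of Sen (IR) + CCCP replicates 1, 2 and 3 or + mtDNA replicates 1 and 2 left 2, 1, 1, 1 and 2 genes.

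With acetate already present, adding mtDNA lowered 9 of 36 genes and raised 0, against 6.0% lower and 6.57% higher among all genes, with 16 at an unadjusted p under 0.05 and medians of -0.27 and 0.00. The largest falls that passed were HIST1H4E, from 2.38, 2.42 and 2.48 to 1.12, 0.820 and 1.47 CPM (log2 fold change -1.08 ± 0.21 SE, edgeR adjusted p = 0.00134), HIST1H2BF, from 0.691, 1.04 and 1.01 to 0.572, 0.410 and 0.315 CPM (log2 fold change -1.06 ± 0.29 SE, edgeR adjusted p = 0.0167), and HIST1H2BG, from 7.02, 7.84 and 6.91 to 5.18, 3.44 and 5.46 CPM (log2 fold change -0.61 ± 0.12 SE, edgeR adjusted p = 0.00164). The others were HIST1H1C, HIST1H2BD, HIST1H2BJ, HIST1H2BK, HIST1H3E and HIST1H4I, by 0.25 to 0.42 on the log2 scale. HIST1H2BK had 42.4, 33.6 and 40.8 CPM and HIST1H1C had 27.1, 20.3 and 26.1 CPM with both, each lowest in replicate 2, the library that stands apart. Without replicate 2 of the + mtDNA + acetate group 2 genes stayed lower, HIST1H4E (edgeR adjusted p = 0.00749) and HIST1H2BG (edgeR adjusted p = 0.00722), and the median was -0.19. The 7 genes that then did not pass had log2 fold changes below 0, HIST1H2BF with -1.02, HIST1H3E with -0.33 and HIST1H2BK with -0.16. Calls were also lost without other libraries, with 5 and 4 genes called without replicate 1 or 2 of the + acetate group.

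With mtDNA already present, adding acetate lowered 26 of 36 genes and raised 1, against 29.9% lower and 27.4% higher among all genes, with medians of -0.92 and -0.02. HIST1H2AC had 287, 281 and 286 CPM with mtDNA alone and 104, 96.3 and 102 CPM with both (log2 fold change -1.50 ± 0.05 SE, edgeR adjusted p = 1.56e-15). HIST1H4H had 81.3, 87.7 and 88.4 and 22.9, 22.498 and 27.9 CPM (log2 fold change -1.81 ± 0.09 SE, edgeR adjusted p = 2.22e-13), and HIST2H2BE had 51.6, 58.7 and 50.7 and 15.01, 17.3 and 15.6 CPM (log2 fold change -1.76 ± 0.09 SE, edgeR adjusted p = 4.51e-13). The largest falls were HIST1H1T, with 23, 27 and 22 counts against 1, 1 and 0 counts and a scaled count 37.3-fold lower (95% counting interval 9.97 to 314), HIST1H2AE, with 1.63, 1.72 and 1.84 against 0.272, 0.0410 and 0.735 CPM (log2 fold change -2.27 ± 0.44 SE, edgeR adjusted p = 1.51e-04), and HIST1H2BC, with 16.3, 14.3 and 15.4 against 3.90, 3.36 and 4.03 CPM (log2 fold change -2.02 ± 0.10 SE, edgeR adjusted p = 4.30e-13). The gene that rose was HIST1H4K, an H4 gene under 1 CPM in every library, from 0.434, 0.467 and 0.129 to 0.708, 0.656 and 0.770 CPM (log2 fold change 1.07 ± 0.41 SE, edgeR adjusted p = 0.0291), a call that was lost without + mtDNA replicate 3 (edgeR adjusted p = 0.162) and without replicate 1 or 3 of the + mtDNA + acetate group (edgeR adjusted p = 0.0582 and 0.066). Without the library that stands apart 22 genes were lower and 1 was higher.

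The interaction of acetate and mtDNA tests whether mtDNA acted differently with acetate present. By edgeR 0 of 36 histone genes passed, against 0.659% of all genes, 5 had an unadjusted p under 0.05, and DESeq2 called 0 as well. Without the library that stands apart edgeR called 0 too. For HIST1H2AC the interaction was -0.21 ± 0.07 on the log2 scale (edgeR adjusted p = 0.253) and for HIST1H4I -0.27 ± 0.10 (edgeR adjusted p = 0.283), which does not show that the effects were alike.

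Genes that belong to the same chromatin system but lie outside the clusters had their own pattern. Histone variants with genes outside the clusters had 1 of 11 higher and 7 lower in Sen (IR) against Prol, with a median of -0.48, against 26.7% higher and 29.9% lower among all genes. The one that rose was H2AFJ, an H2A variant known from senescent cells, from 18.8, 21.2 and 18.9 to 31.9, 35.9 and 33.51 CPM (log2 fold change 0.78 ± 0.08 SE, edgeR adjusted p = 3.05e-08), and it fell after CCCP to 14.2, 13.7 and 16.4 CPM (log2 fold change -1.20 ± 0.08 SE, edgeR adjusted p = 2.11e-11). H2AFJ was the lowest of the list after CCCP, where 7 of the 11 were higher and 2 were lower, with a median of 0.40. Among all genes 34.0% were higher and 31.3% were lower there. With acetate 5 of the 11 were higher and 5 were lower, against 28.8% and 28.3% of all genes. H1F0, the linker histone of resting and differentiated cells, had 100.2, 89.3 and 95.96 CPM in Sen (IR), 227, 216 and 236 CPM in Sen (IR) + CCCP and 577, 557 and 586 CPM with acetate (log2 fold change 1.34 ± 0.06 SE, edgeR adjusted p = 6.19e-14), where the clustered linker gene HIST1H1C went down. CENPA, the H3 variant of centromeres, fell with irradiation (log2 fold change -1.74 ± 0.21 SE, edgeR adjusted p = 3.73e-07) and with acetate (log2 fold change -2.11 ± 0.27 SE, edgeR adjusted p = 6.64e-07). H2AFX, whose phosphorylation marks DNA breaks, fell with acetate by 1.16 on the log2 scale, and H3F3B, a gene of H3.3, by 0.36.

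Of 11 genes for the making of stem-loop ends, 2 were higher and 6 lower in Sen (IR) against Prol, where 26.7% and 29.9% of all genes were. SLBP, the stem-loop binding protein, was higher, from 53.51, 49.53 and 56.03 to 72.7, 73.9 and 64.2 CPM (log2 fold change 0.41 ± 0.06 SE, edgeR adjusted p = 4.92e-06), as was LSM10, a subunit of the U7 particle (log2 fold change 0.48 ± 0.08 SE, edgeR adjusted p = 3.24e-05). NPAT, the activator of clustered histone genes, was lower (log2 fold change -0.48 ± 0.07 SE, edgeR adjusted p = 5.31e-06), and so was CASP8AP2, which encodes its partner FLASH (log2 fold change -0.57 ± 0.08 SE, edgeR adjusted p = 1.72e-06). After CCCP 8 of 11 were higher and 0 lower, against 34.0% and 31.3% of all genes, among them CPSF2, a subunit of the cleavage complex, and ZNF473, a U7 particle protein, at 0.98 and 0.72 on the log2 scale. With acetate 5 were lower and 1 was higher, against 28.3% and 28.8% of all genes. In both directions together, the shares called after CCCP and with acetate were 72.7% and 54.5% for this list and 65.2% and 57.1% for all genes. These lie close to each other, but the directions were less even in the list. Its median log2 fold change was 0.29 after CCCP and -0.05 with acetate, against 0.03 and 0.01 for all genes. SLBP had a log2 fold change of -0.40 ± 0.06 with acetate. With mtDNA 0 of 11 passed in edgeR, against 18.1% of all genes, and 2 had an unadjusted p under 0.05. Of 14 histone chaperones 10 were lower and 1 higher with irradiation, 10 higher and 1 lower after CCCP, and 9 lower and 0 higher with acetate. In both directions together these were 78.6%, 78.6% and 64.3% of the list, against 56.7%, 65.2% and 57.1% of all genes. ASF1B and CHAF1B, which load new histones at replication forks, had log2 fold changes of -0.58 and -0.90 with irradiation, 1.18 and 1.07 after CCCP and -2.13 and -1.60 with acetate.

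S-phase genes are given beside the histone genes because histone messages normally follow S phase. Their 19 genes summed to 791 ± 3.81 CPM in Prol, 527 ± 28.03 in Sen (IR), 985 ± 27.8 in Sen (IR) + CCCP, 308 ± 2.33 with acetate, 913 ± 10.9 with mtDNA and 309 ± 35.2 with both (mean ± SD, n = 3). In Sen (IR) against Prol 3 rose and 13 fell, against 26.7% and 29.9% of all genes. In this poly(A) RNA the histone genes and the S-phase genes thus went mostly opposite ways there. MKI67, a marker of cycling cells, had 58.8, 60.2 and 58.3 CPM in Prol and 13.8, 14.4 and 17.8 CPM in Sen (IR). RRM2, which makes deoxynucleotides, had a log2 fold change of -0.39 ± 0.11, and CCNE1, cyclin E1, one of 1.07 ± 0.11. After CCCP 16 of 19 rose and 1 fell, against 34.0% and 31.3% of all genes, CCNE1 being the one that fell (log2 fold change -0.91 ± 0.11 SE, edgeR adjusted p = 1.23e-07). With acetate 18 fell and 0 rose, against 28.3% and 28.8% of all genes, RRM2 by 3.09 and PCNA by 0.82 on the log2 scale. With mtDNA 2 fell and 0 rose, against 7.40% and 10.7% of all genes. In the CCCP groups the S-phase list and the clustered histone genes thus moved the same way with acetate, and the part of cycling cells in the histone values was not tested. In bulk RNA, fewer cells of a kind and less RNA per cell cannot be told apart.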

How the data were processed

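Poly(A) RNA-seq libraries of 18 samples (6 groups, 3 each) were compared. Raw counts per gene were deposited by the authors, who by their methods and processing notes trimmed reads (Trimmomatic 0.36), aligned them to GRCh38 (STAR 2.5.2b) and counted uniquely mapped reads (featureCounts, Subread 1.5.2). TPM values, corrected for gene length, were deposited by the authors as a second table and used to compare levels between genes and, beside the counts, between groups. The methods state strand-aware counting for strand-specific libraries, without saying whether these were.

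Here, members were taken by name, and groups from the labels. Genes kept by filterByExpr (16994) were fitted with edgeR 4.0.16 (R 4.3.3; TMM, quasi-likelihood test, 1 model with 6 group means), with Benjamini-Hochberg adjustment over all genes at 0.05. CPM used the same TMM sizes. DESeq2 1.42.0, other filters, a replicate block and leaving out libraries were alternatives. Intervals for ratios of low counts are exact, at 95%, and cover counting error. The members and gene lists were chosen with earlier results of these data known. Values in every library were given for the 10 members highest in mean TPM and, per comparison, for the 3 largest rises and the 3 largest falls that passed. The other genes named come from these lists: histone variants outside the clusters, histone mRNA processing, chaperones, S phase and cell type markers. Total counts were 24624886 to 46224280 per library (median 29620505.5), and no 2 libraries held identical values. Stem-loops and windows were read from GRCh38 with GENCODE v44, and promoters from RefSeq (GRCh38.p14). The edgeR script was tested on simulated counts.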

Additional observations from a re-analysis of the deposited data

How the results depend on the processing

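With at least 10 counts required in every library, fewer histone genes (22) were tested. The number called became 20 for irradiation, 22 for Sen (IR) + CCCP against Prol, 2 for mtDNA and 17 for acetate added to mtDNA. For mtDNA, HIST1H4E, HIST2H2BC and HIST2H4A, which were called before, were no longer tested. For mtDNA (4 called), DESeq2's Wald test gave 1, no filter on low counts 2, and leaving out 1 library 1 to 3. For mtDNA added to acetate (9 called), a fit of only the groups compared gave 2 and leaving out 1 library 2 to 10. The causes were not tested. Replicate numbers did not pair the samples (correlations of deviations from -0.0691 to 0.0377), and with the replicate number as a block 1 gene was called for mtDNA, while the counts for irradiation, depletion and acetate were 31, 18 and 22.

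The log2 ratio of summed levels moved for irradiation from 1.88 to 1.99 without HIST1H2AC, for CCCP against Sen (IR) to 0.614 in TPM and 0.220 without HIST1H2AC, and for CCCP against Prol to 2.49 and 2.21. It moved for acetate to -0.896 without HIST1H2AC, for mtDNA to -0.103 in TPM and -0.0739 without HIST1H2AC, and for acetate added to mtDNA to -1.10. Values that changed sign belonged to genes that did not pass. For CCCP against Sen (IR), HIST2H2BE had -7.86e-05 with DESeq2 size factors, and leaving out 1 library gave -0.0627 to 0.0801 for HIST2H2BE and -0.125 to 0.00976 for HIST1H4I. For mtDNA, HIST1H4I had -0.0155 with 10 counts in every library, -0.0117 without a filter and -0.0152 with only the groups compared. Leaving out 1 library for mtDNA gave -0.0475 to 0.0435 for HIST1H2BD, -0.0818 to 0.000921 for HIST1H2BJ, -0.0579 to 0.00296 for HIST1H2BK, -0.00710 to 0.0264 for HIST1H4I and -0.0999 to 0.0131 for HIST2H2BE. For mtDNA added to acetate it gave -0.254 to 0.0153 for HIST1H2AI, whose value turned without replicate 2 of the combined group. Without the members annotated as pseudogenes or not matched, a choice made after seeing the data, 29 genes were called for irradiation and 20 for acetate.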
